A study of Mus musculus with 2 samples.

Results

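SLAM (signaling lymphocytic activation molecule) family receptors are surface proteins of lymphocytes and other blood cells. Most of them bind the same receptor on a neighboring cell, and the tails of most carry tyrosine motifs that recruit the small SH2 adaptor SAP, encoded by Sh2d1a. SAP brings the kinase Fyn to the receptor, and in CD4 T cells this route is known for its part in IL-4 production, in help to B cells and in the development of NKT cells. The receptor genes lie side by side on chromosome 1, in a cluster whose haplotypes differ between inbred mouse strains. The 7 genes described here are the receptors Ly9, Slamf7, Cd48, Slamf1, Cd84 and Slamf6 and the adaptor Sh2d1a. They were chosen by symbol, and all 7 were found among the 24421 genes of the files.

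Expression was measured by RNA sequencing of Th1 cultures, made from naïve CD4 T cells stimulated through CD3 and CD28 and skewed in culture with IL-12, IL-2 and an antibody to IL-4. One group came from Chi3l1+/+ mice (WT) and the other from Chi3l1-/- mice (Chi3l1 KO), which lack chitinase 3-like 1 in all cells. Both had the C57BL/6J strain background, and the study's methods give an age of 6 to 8 weeks for its mice. Each group was 1 library (n = 1), so no difference below has a replicate check and no test between genotypes was possible. Whether mice were pooled for a library is not given in the sources used here.

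The targeted gene went against the labels. Chi3l1, listed as Chil1, had 1 read in the library labelled WT and 103 reads in the library labelled KO, a log2 fold change of 5.71, with a counting interval of 4.17 to 12.0. The values are per gene, so it cannot be seen whether these reads come from a part of the gene that the deletion left in place. Whether the labels of the libraries were exchanged was not tested either. The direction of every difference below is drawn from the labels, and an exchange would reverse it. Each library has 24421 values, taken here to be the log2 of 1 plus a normalized count. Read counts rebuilt from them summed to 70602025 in the library labelled WT and 62958938 in the library labelled KO. Of 9 T cell markers in the files all had reads in both libraries, with Cd3e at 14.9 in both and Cd4 at 14.3 and 13.9. All 6 Th1 markers had reads, and 4 were higher and 2 lower in the library labelled KO. The log2 fold changes were 1.32 for Ifng, 0.624 for Il18r1, 0.445 for Il12rb2, 0.165 for Stat4, -0.265 for Tbx21 and -1.23 for Cxcr3 (273 and 116 reads).

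A fold change is the deposited value in the library labelled KO minus that in the library labelled WT, on the log2 scale of the normalized count plus 1. Its 95% interval is an exact binomial (Clopper-Pearson) one on the read counts rebuilt from the values. It covers counting error only, and reads are not independent molecules. The spread between well-expressed genes serves as a second guide. A total of 8886 genes reached a log2 value of 8 in both libraries and are called well expressed. Among them the SD of the log2 fold change was 0.369, the median was -0.01, and the range from the 5th to the 95th percentile was -0.63 to 0.54. All 7 SLAM genes were in this set. Of the 24421 genes, 16148 had reads in at least 1 library. Genes without reads count as unchanged in the shares of all genes below, which makes those shares smaller.

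Of the 7 genes, Slamf7 differed most and was 1.86-fold higher in the library labelled KO. Sh2d1a was 1.42-fold, Cd48 was 1.40-fold and Ly9 was 1.17-fold higher in that library. Slamf1 was within counting error of equal, and Cd84 and Slamf6 were lower there, at 0.872 and 0.830 of the level in the library labelled WT. In the deposited values none of the 7 was past 2-fold, where 10.5% of all genes and 1.2% of the well-expressed genes were. Slamf7 was the 1 member at or past 1.5-fold higher, where 3.95% of the well-expressed genes were, and no member was at or past 1.5-fold lower, where 6.29% were. With 5 of 7 members higher against 48.8% of the well-expressed genes, the median log2 fold change of the members was 0.23, and that of the well-expressed genes was -0.01. These values were not corrected for the trend with GC content that is given below. At the GC content of the members this trend was positive, from 0.07 for Ly9 to 0.24 for Cd84. With it removed, the median of the 7 was 0.16 and Slamf1 was at -0.13.

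**Figure D1:**
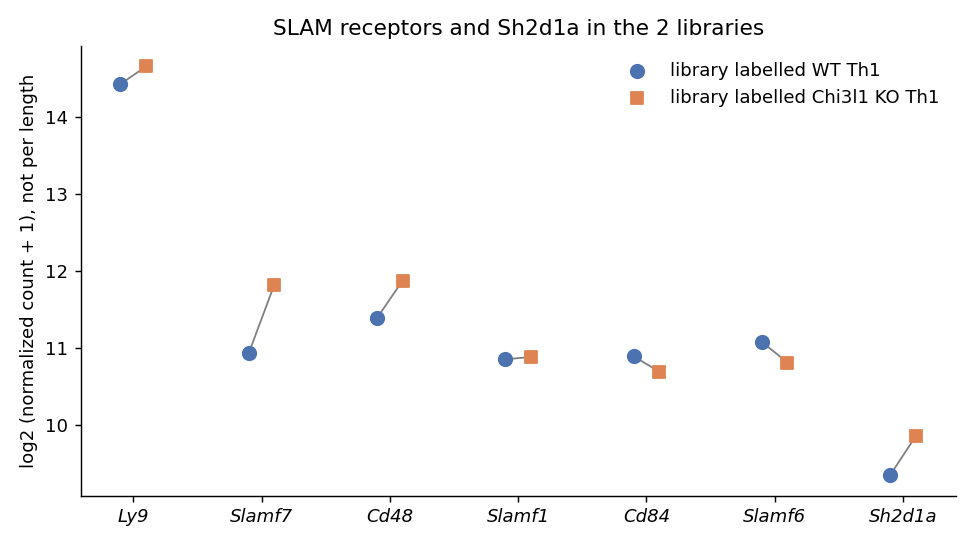
Deposited values of the 7 SLAM genes, as log2 of the normalized count plus 1 and not corrected for gene length, in the library labelled WT Th1 (circles) and the library labelled Chi3l1 KO Th1 (squares), 1 sample each. Ly9 sits above 14 in both libraries, the other 5 receptors lie between 10.7 and 11.9, and Sh2d1a is lowest, at 9.35 and 9.85.

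Ly9 (CD229) is a receptor that binds itself on a partner cell. Its log2 value was 14.43 in the library labelled WT and 14.66 in the library labelled KO, from 22751 and 26757 rebuilt reads. The log2 fold change was 0.23, with a counting interval of 0.21 to 0.26. The narrow interval comes from its many reads, and the difference was smaller than the SD between well-expressed genes, of which 50.5% changed at least as much.

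Slamf7 (CRACC, CS1) is a self-binding receptor of activated lymphocytes, NK cells and plasma cells, which signals mainly through the SAP relative EAT-2. Its log2 value was 10.93 in the library labelled WT and 11.82 in the library labelled KO, from 2010 and 3746 rebuilt reads. The log2 fold change of 0.90 had a counting interval of 0.82 to 0.97, which stayed under the 2-fold line. It ranked 58 from the highest among the 8886 well-expressed genes, of which 1.88% changed at least as much in either direction. Slamf7 was the only one of the 7 outside the 5th to 95th percentile of those genes.

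Cd48 has no tail inside the cell. It is held in the membrane by a lipid anchor and binds CD2 and CD244 on other cells. Its log2 value was 11.39 in the library labelled WT and 11.88 in the library labelled KO, from 2761 and 3884 rebuilt reads. The log2 fold change was 0.49, with a counting interval of 0.42 to 0.56, and 16.5% of the well-expressed genes changed at least as much. Of its binding partners, Cd2 had log2 values of 13.23 and 13.37, a log2 fold change of 0.14. Cd244 had 15 rebuilt reads in each library.

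Slamf1 (SLAM, CD150) is the founding receptor of the family and binds itself. Its log2 value was 10.85 in the library labelled WT and 10.88 in the library labelled KO, from 1905 and 1951 rebuilt reads. The log2 fold change of 0.03 had a counting interval of -0.06 to 0.12, so a difference was not detectable at this depth.

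Cd84 and Slamf6 (Ly108) are self-binding receptors that take part in lasting contacts between T cells and B cells. The log2 value of Cd84 was 10.89 in the library labelled WT and 10.69 in the library labelled KO, from 1958 and 1711 rebuilt reads. Its log2 fold change was -0.20, with a counting interval of -0.29 to -0.10. The log2 value of Slamf6 was 11.08 in the library labelled WT and 10.81 in the library labelled KO, from 2230 and 1856 rebuilt reads. Its log2 fold change was -0.27, with a counting interval of -0.36 to -0.18. Both intervals lie below 0, but 57.2% of the well-expressed genes changed at least as much as Cd84 and 44.4% at least as much as Slamf6. The values are per gene, so splice forms of Slamf6, which are known to differ between mouse strains, were not separated.

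Sh2d1a lies on the X chromosome and not in the receptor cluster. Its log2 value was 9.35 in the library labelled WT and 9.85 in the library labelled KO, from 670 and 955 rebuilt reads. The log2 fold change was 0.51, with a counting interval of 0.36 to 0.65, and 15.5% of the well-expressed genes changed at least as much. Summed over the 6 receptors, there were 50.2 normalized counts of receptor for each one of Sh2d1a in the library labelled WT and 41.8 in the library labelled KO. The other SAP-like adaptors of the mouse, Sh2d1b1 (EAT-2A) and Sh2d1b2 (EAT-2B), had no read in either library, where 3 reads would give a log2 value of 1.97 and 1.96.

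**Figure D2:**
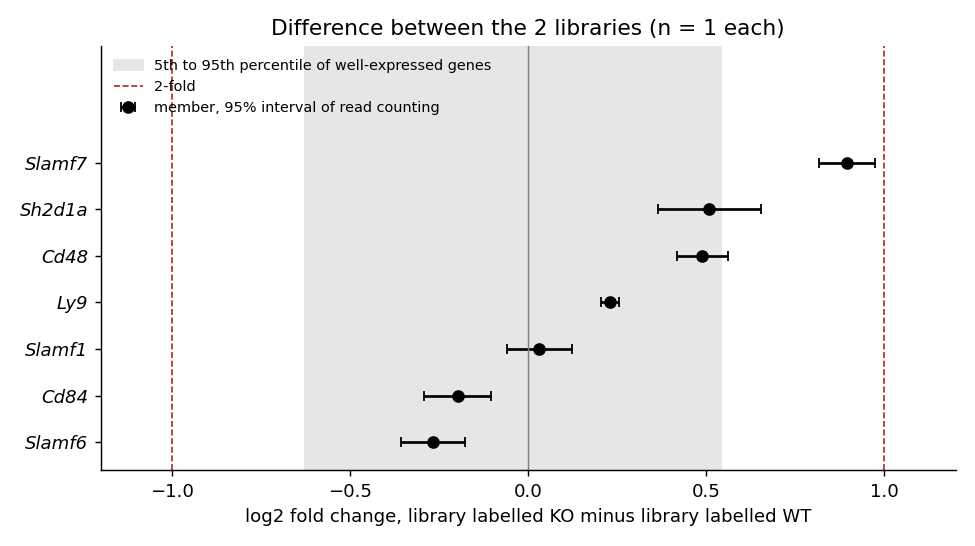
Log2 fold change of each SLAM gene, as the value in the library labelled KO minus that in the library labelled WT (1 sample each), with the 95% interval of read counting as a bar. The grey band runs from -0.63 to 0.54 and holds the middle of the 8886 well-expressed genes, the dashed lines mark 2-fold, and Slamf7 at 0.90 is the one point outside the band.

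The 3 remaining receptors of the family had few reads, at most 30 in either library. Cd244, which binds Cd48, had a log2 value of 3.95 in both libraries. Slamf8, a receptor known from myeloid cells, had 30 rebuilt reads in the library labelled WT and 7 in the library labelled KO, a log2 fold change of -1.96, with a counting interval of -3.53 to -0.89. Slamf9 had 2 reads in the library labelled WT and 11 in the library labelled KO, a log2 fold change of 2.01, with a counting interval of 0.26 to 5.67.

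The members were also compared with each other after division by the length of the longest coding transcript in GENCODE M21 (GRCm38). In counts per kb, Ly9 was highest, with 8865 normalized counts per kb in the library labelled WT and 10405 in the library labelled KO, above 96.1% and 97.0% of the genes with reads. Cd48 followed with 2257 and 3168. In the library labelled WT the others were far lower and close together, in the order Slamf1 (686 per kb), Cd84 (553 per kb), Sh2d1a (531 per kb), Slamf7 (490 per kb) and Slamf6 (377 per kb). In the library labelled KO the order was Slamf7 (912 per kb), Sh2d1a (755 per kb), Slamf1 (701 per kb), Cd84 (482 per kb) and Slamf6 (313 per kb). These orders depend on the length that is used, and the change in the place of Slamf7 is not seen per kb of all annotated exons. On that scale Slamf7 followed Cd48 in both libraries, with 426 per kb in the library labelled WT and 792 in the library labelled KO. Sh2d1a was then last in the library labelled WT, with 118 per kb against 200 for Slamf6, and both were close together in the library labelled KO, with 168 and 166 per kb.

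As a share of the rebuilt reads of the 6 receptors, Ly9 held 67.7% in the library labelled WT (exact 95% interval 67.2% to 68.2%) and 67.1% in the library labelled KO (66.6% to 67.5%). The remainder was divided differently. Slamf7 held 5.98% (5.73% to 6.24%) in the library labelled WT and 9.39% (9.10% to 9.68%) in the library labelled KO. Slamf6 held 6.63% (6.37% to 6.91%) and 4.65% (4.45% to 4.86%) in the same order. The ratio of Slamf7 to Slamf6 counts went from 0.901 in the library labelled WT to 2.02 in the library labelled KO, a log2 difference of 1.16. These are the receptors with the highest and the lowest fold change, so no other pair of the 6 differs more. For Cd48 to Cd84 the log2 difference was 0.69, and for Slamf1 to Cd84 it was 0.23. Such a ratio is taken within a library, so it does not change with a scaling of the whole library. The sum over the 6 receptors was 32590 normalized counts in the library labelled WT and 38608 in the library labelled KO, a ratio of 1.18.

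**Figure D3:**
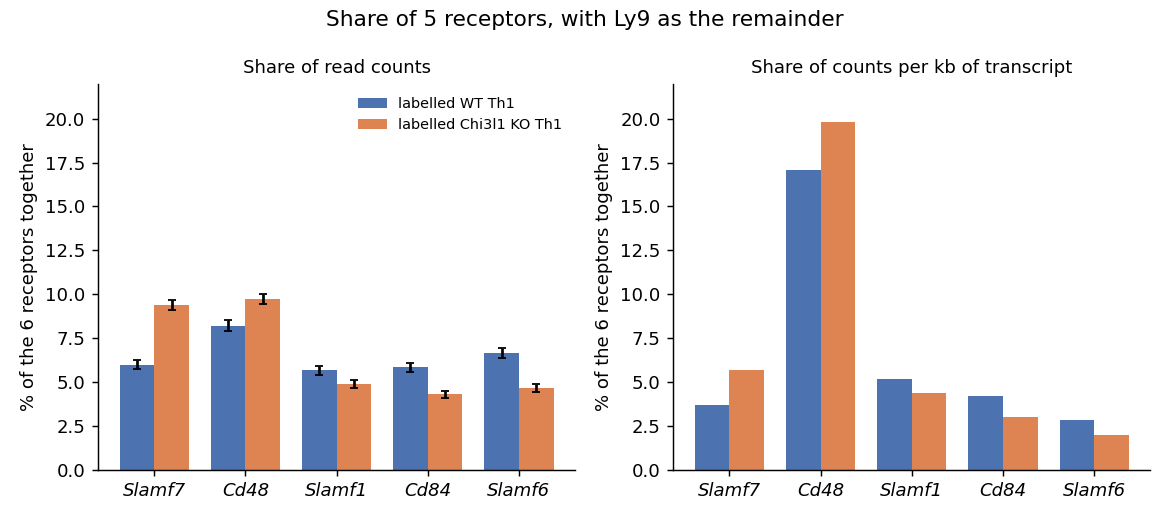
Share of each receptor except Ly9 in the total of the 6 SLAM receptors, in percent, for the library labelled WT Th1 (blue) and the library labelled Chi3l1 KO Th1 (orange), from rebuilt read counts (left, bars with the exact 95% interval of counting) and from counts per kb of transcript (right, no interval). Slamf7 and Cd48 have the larger share in the library labelled KO, and Slamf1, Cd84 and Slamf6 in the library labelled WT, on both scales.

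The 6 receptor genes lie on chromosome 1 between 171588624 and 171953170 (GRCm38), a span of 365 kb that starts 37.4 Mb beyond the end of Chil1 on the same chromosome. From Slamf7 onward the log2 fold changes descended with position. Slamf7 (chromosome 1, 171632403 to 171653035, minus strand) had 0.90 and Cd48 (171682009 to 171705258, plus strand) had 0.49. Slamf1 (171767127 to 171801184, plus strand) had 0.03 and Cd84 (171839697 to 171890718, plus strand) had -0.20. Slamf6 (171917515 to 171953170, plus strand) had -0.27. Ly9 (171588624 to 171607410, minus strand), the first of the row, had 0.23 and breaks the order. Across the 6 genes, Spearman's rho between start and log2 fold change was -0.83, given as a description over genes that share both libraries. Sh2d1a is on chromosome X (42502453 to 42529330, plus strand).

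The files hold 40 further genes within 500 kb of the cluster, of which 18 were well expressed. These 18 had a median log2 fold change of 0.05, from -0.27 to 0.79, and 1 was at or past 1.5-fold higher and none lower, where 3.95% and 6.29% of the well-expressed genes were. This gene was Ufc1, the conjugating enzyme of the ubiquitin-like protein UFM1, with 10.20 in the library labelled WT and 10.99 in the library labelled KO. Of the 27 that reached a log2 value of 4 in one library, 3 were at or past 1.5-fold higher and 2 lower, where 9.6% and 11.4% of all genes were, and those besides Ufc1 had fewer reads. Pfdn2, a subunit of the prefoldin chaperone, had a log2 fold change of 1.33 from 30 and 77 reads. Vangl2, a planar cell polarity protein and the nearest gene beyond Slamf6, had -1.50 from 92 and 32 reads. Fcer1g, the signaling chain of several Fc receptors, had -0.70 from 295 and 181 reads. Mir7683, which lies inside Slamf7 on the same strand, had 1.74 from 5 and 19 reads, and its reads cannot be told apart from those of Slamf7. The nearest gene of that level before Ly9 was F11r, with 4.42 and 4.41. The sequence haplotype of the cluster is not visible in values per gene.

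**Figure D4:**
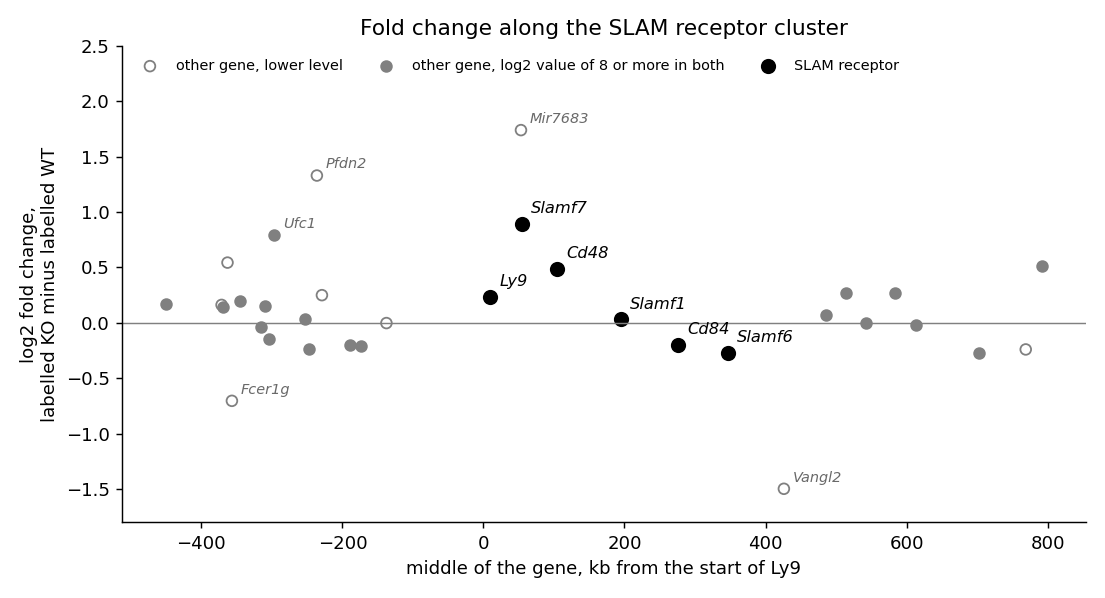
Log2 fold change (library labelled KO minus library labelled WT, 1 sample each) of the 6 SLAM receptors (black) and of other genes within 500 kb (grey, filled where the log2 value reaches 8 in both libraries, open where it is lower but reaches 4 in one), against the middle of each gene in kb from the start of Ly9. Ly9, the first receptor, has 0.23 and breaks the order, and the others go from 0.90 for Slamf7 down to -0.27 for Slamf6. The well-expressed neighbors lie between -0.27 and 0.79.

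Promoter sequences are shown for both receptors with the largest positive fold changes and for the one with the lowest, so that the start regions of genes in one cluster that differed in opposite directions can be set side by side. Each holds the 250 bases before the start given by RefSeq (GRCm38.p6), 5′ to 3′ on the strand of the gene. RefSeq entries were found for 5 of the 7 genes. Capitals mark matches on either strand to a T-box half-site (GGTGTGA), a RUNX site (TGTGGT), an ETS core (GGAAG) or an interferon gamma activated site (TTCNNNGAA), which are motifs of factor families that T cells use. The Slamf7 window is chr1:171649000-171649249 on the minus strand, and this start lies inside the longer gene span of GENCODE. The Cd48 window is chr1:171681742-171681991 on the plus strand. The Slamf6 window is chr1:171917212-171917461 on the plus strand.
Slamf7: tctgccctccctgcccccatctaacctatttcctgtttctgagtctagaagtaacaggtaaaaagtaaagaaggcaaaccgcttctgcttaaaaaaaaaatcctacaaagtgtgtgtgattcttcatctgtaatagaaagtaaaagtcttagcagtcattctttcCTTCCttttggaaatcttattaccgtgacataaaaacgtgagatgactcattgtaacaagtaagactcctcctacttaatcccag
Cd48: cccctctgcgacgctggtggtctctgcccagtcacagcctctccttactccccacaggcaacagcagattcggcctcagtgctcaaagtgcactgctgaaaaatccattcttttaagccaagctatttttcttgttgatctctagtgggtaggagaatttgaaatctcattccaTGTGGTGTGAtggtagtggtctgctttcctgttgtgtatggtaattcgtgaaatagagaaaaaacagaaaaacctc
Slamf6: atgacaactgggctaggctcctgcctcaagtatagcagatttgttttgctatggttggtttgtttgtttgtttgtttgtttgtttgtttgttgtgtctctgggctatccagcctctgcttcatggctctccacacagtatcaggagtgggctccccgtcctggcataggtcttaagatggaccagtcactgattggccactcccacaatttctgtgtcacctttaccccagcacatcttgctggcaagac
The Slamf7 window held 1 ETS core, a match that 64.1% of all 32851 RefSeq windows of this length hold. The Cd48 window held a RUNX match and a T-box match that overlap each other, and these motifs are found in 14.0% and 3.33% of all windows. The Slamf6 window held none of the 4. The window of Slamf1 held 2 ETS cores and that of Cd84 held 1 RUNX match. No interferon gamma activated site, which 7.02% of all windows hold, was found in the 5 windows. A match is a description of letters and not a binding site.

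Of 19 genes of proximal SLAM and T cell receptor signaling, 10 were higher and 9 lower in the library labelled KO, with a median log2 fold change of 0.02. Fyn, the kinase that SAP recruits, had 14.77 in the library labelled WT and 14.84 in the library labelled KO, a log2 fold change of 0.07, with a counting interval of 0.05 to 0.10. Protein kinase C theta (Prkcq), which acts downstream of Fyn, had 12.14 and 12.23. The phosphatases that the receptor tails can bind instead of SAP were on both sides, with a log2 fold change of 0.08 for Ptpn6 (SHP-1), 0.24 for Ptpn11 (SHP-2) and -0.35 for Inpp5d (SHIP-1). The 1 gene at or past 1.5-fold was the adaptor Dok2, a negative regulator of T cell signaling, with 11.00 and 10.37, a log2 fold change of -0.63. Its transcript has 57.6% GC, and well-expressed genes of like GC content had a median log2 fold change of -0.27. The value of Dok2 was not corrected for this trend. Of the well-expressed genes, 6.29% were at or past 1.5-fold lower.

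Of 14 cytokine and helper T cell genes linked to SLAM and SAP function, 4 were at or past 2-fold higher, where 4.7% of all genes were, and none was at or past 2-fold lower, where 5.81% were. Ifng, the cytokine that defines Th1 cells, had 11.72 in the library labelled WT and 13.04 in the library labelled KO, a log2 fold change of 1.32. Cxcr5, the homing receptor of follicular helper cells, had 8.15 and 9.22, a log2 fold change of 1.07, with a counting interval of 0.87 to 1.28. Cxcr5 is also a B cell gene. The other pair, Il4 with 1 and 9 reads and Il5 with 0 and 3 reads, had too few reads for a statement on size. Gata3, the Th2 factor, had 11.82 and 11.18, a log2 fold change of -0.64, and was one of 2 genes at or past 1.5-fold lower, where 11.4% of all genes were. The other was Zbtb16, the NKT cell factor PLZF, with 1 read in the library labelled WT and 0 in the library labelled KO. Il21, a cytokine of follicular helper cells, had 672 and 959 reads, a log2 fold change of 0.51. Bcl6, their lineage factor, had -0.21, and the costimulatory receptor Icos had 0.08.

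The receptors are not particular to T cells, and B cell genes were also higher in the library labelled KO. All 8 B cell markers had more reads in the library labelled KO, with log2 fold changes from 0.27 for Cd79b to 1.998 for Blk, and 7 of the 8 were at or past 1.5-fold higher, where 9.6% of all genes were. Their normalized counts summed to 1692 in the library labelled WT and 3514 in the library labelled KO, a ratio of 2.08, and none of the 8 was at 0. B cells express Ly9, Cd48, Cd84, Slamf1, Slamf6 and, as plasma cells, Slamf7. In the same order of libraries, Slamf7 had 1949 and 3625 normalized counts, Cd48 had 2677 and 3758, and Ly9 had 22057 and 25887. Slamf1 was nearly equal, with 1847 and 1887. Cd84, with 1898 and 1656, and Slamf6, with 2162 and 1796, were lower in the library labelled KO. The part of the B cell genes in these differences was not tested. In bulk RNA, more cells of a type and more RNA per cell cannot be told apart. The T cell markers were lower for 7 of 9 genes, with a sum of 202247 in the library labelled WT and 176553 in the library labelled KO. These values were not corrected for the trend with GC content that is given below. Lat (57.9% GC), Cd5 (56.8%) and Thy1 (55.8%) were among the lower genes, and Cd247 (44.4%) was higher, but Cd3g (47.1%) was lower. The lists of the remaining cell types had small sums, and their part was not tested. NK cell genes summed to 27.1 and 54.0, with 4 of 6 genes at 0 in the library labelled WT and 2 of 6, Klra4 and Klra9, at 0 in both. Among them Klrb1c, at 17 and 9 reads, was lower in the library labelled KO. Dendritic cell genes summed to 73.6 and 122, with Siglech and Clec9a at 0 in both and Itgax, at 44 and 5 reads, lower in the library labelled KO. Monocyte and macrophage genes summed to 529 and 489, with Adgre1 at 0 in both. That sum was mostly Cd68, with 390 and 290 normalized counts, and the other genes went both ways. Lyz2 (34 and 2 reads) and Cd14 (12 and 0 reads) were lower in the library labelled KO. Csf1r (97 and 174 reads), Mrc1 (0 and 29 reads) and Fcgr1 (0 and 1 read) were higher there. Neutrophil genes summed to 80.3 and 4.79, with Camp at 0 in both and 5 of 6 at 0 in the library labelled KO. Megakaryocyte genes summed to 97.9 and 52.2, with Gp9 and Ppbp at 0 in both, and mast cell genes to 132 and 186, with Mcpt4 at 0 in both. The mast cell sum was mostly Kit, with 117 and 181 normalized counts, and Cpa3 and Fcer1a were lower in the library labelled KO. The CD8 T cell genes Cd8a and Cd8b1 had log2 fold changes of 0.60 and -0.47.

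Counts of overlapping genes could be split or shared. Cd244 overlaps Ly9 on the opposite strand in GENCODE, and its 15 reads in each library are few beside the 22751 and 26757 of Ly9. Tenm1 overlaps the end of Sh2d1a on the opposite strand and had no read in either library.

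The size of the differences depended on how the libraries were scaled. Log2 fold changes in these libraries depended on transcript GC content, from a median of 0.24 in the most AT-rich of 20 bins of well-expressed genes to -0.46 in the most GC-rich, and the SLAM genes are AT-rich, from 39.3% GC for Cd84 to 48.8% for Ly9. With the trend with GC content removed, Slamf7 had 0.77, Sh2d1a 0.28, Cd48 0.27, Ly9 0.16, Slamf1 -0.13, Cd84 -0.43 and Slamf6 -0.46. Slamf1 changed its direction, and the other 6 genes kept theirs. With the libraries scaled to Actb (log2 values of 18.99 and 18.87), which moved the median of the well-expressed genes by 0.12, Slamf7 had 1.01 and was past 2-fold. Cd48 at 0.60 and Sh2d1a at 0.62 were then past 1.5-fold as well, which makes 3 members in place of 1.

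**Figure D5:**
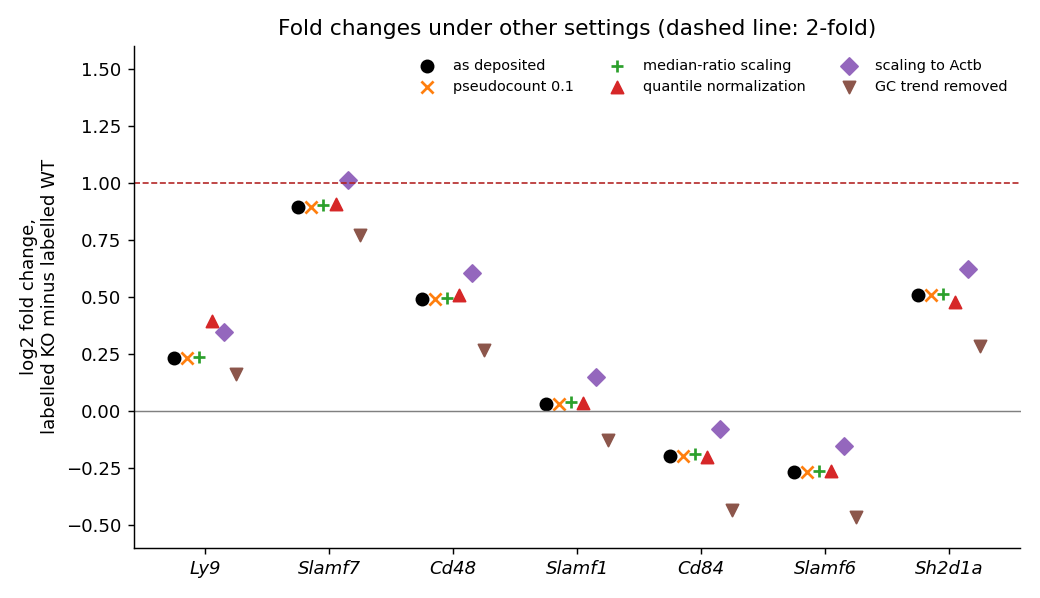
Log2 fold change of the 7 SLAM genes (library labelled KO minus library labelled WT, 1 sample each) as deposited and under 5 other settings. Slamf7 lies between 0.77 and 1.01 and is highest under each of them, Slamf6 lies between -0.46 and -0.15, and Slamf1 falls on both sides of 0.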

How the data were processed

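RNA of 1 WT Th1 and 1 Chi3l1 KO Th1 culture was sequenced on oligo-dT selected libraries with paired reads. The authors mapped reads with TopHat (mm10 per the processing notes), counted unique and multiple alignments for edgeR, and applied a global normalization. The annotation is not given in the sources used here. The deposited values carry no stated unit and were taken to be the log2 of 1 plus a normalized count, since even steps appear once the log is undone. The step, the worth of 1 read, was found by grid search between 20 and 60 as 0.97 in both libraries, with all 1284 and 1277 values in that range within 0.15 of a whole read. Low counts were worth slightly less (0.921 to 0.957 for 1 read in the library labelled WT), so low rebuilt counts are approximate. Fold changes were differences of the deposited values without further normalization.

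The members, gene lists and motifs were chosen with earlier results of these data known. Named genes were all members, the rest of the family, and listed or neighboring genes at or past 1.5-fold that reached a log2 value of 4 in one library, with Fyn and Ifng always given, the nearest gene of that level on each side of the cluster, and Chil1 and Actb as checks. A few further genes of the lists are named for their role. Trbc2 and Ly6g of the marker lists were not analysed here. Coordinates, lengths and GC content came from GENCODE M21, which held a transcript for 96.0% of the symbols that reached a value of 1 in one library. The GC trend was the median log2 fold change in 20 GC bins. Alternatives were a pseudocount of 0.1, median-ratio, quantile and Actb scaling, GC trend removal, thresholds of 1.5-fold and 3-fold, floors on the value, and counts per length. Scripts were tested on simulated data. The tools were scipy 1.17.1, pandas 2.3.3, numpy 2.4.6 and matplotlib 3.10.9 under Python 3.11.15.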

Additional observations from a re-analysis of the deposited data

How the results depend on the processing

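With 1 library per genotype, no replicate could be left out. No paired analysis was possible because each genotype has 1 sample. The pseudocount of 0.1 and median-ratio scaling left all 7 members within their counting intervals. Quantile normalization moved Ly9, and with it the median of the 7, from 0.23 to 0.39. Scaling to Actb gave Ly9 0.35 (again the median), Slamf7 1.01, Cd48 0.60, Slamf1 0.15, Cd84 -0.081, Slamf6 -0.15 and Sh2d1a 0.62, so that 1 member was past 2-fold and, with the lower threshold of 1.5-fold, a combination chosen after seeing the data, 3 were higher. Removal of the GC trend gave Ly9 0.16 (the median), Slamf7 0.77, Cd48 0.27, Slamf1 -0.13, Cd84 -0.43, Slamf6 -0.46 and Sh2d1a 0.28. By construction, each of these values is the deposited difference less the trend at the GC content of the gene. At 1.5-fold, 1 member was counted as higher in the deposited values. For the shift of Ly9 under quantile normalization, the cause was not tested.

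As deposited, 1147 genes were higher and 1418 lower by 2-fold or more. There were 2345 and 2795 at 1.5-fold, 573 and 733 at 3-fold, 589 and 776 among genes that reached 1 in both libraries, and 41 and 66 among those that reached 8 in both.

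The share of each gene in the sum of the 7 depends on length. In counts per kb of transcript the shares in the libraries labelled WT and KO were 64.4% and 62.2% for Ly9, 3.56% and 5.45% for Slamf7, 16.4% and 18.9% for Cd48, 4.99% and 4.19% for Slamf1, 4.02% and 2.88% for Cd84, 2.74% and 1.87% for Slamf6, and 3.86% and 4.51% for Sh2d1a. Per kb of all annotated exons, an alternative chosen after seeing the data, they were 65.0% and 61.7% for Ly9, 4.15% and 6.24% for Slamf7, 21.9% and 24.9% for Cd48, 2.92% and 2.42% for Slamf1, 2.95% and 2.08% for Cd84, 1.94% and 1.31% for Slamf6, and 1.15% and 1.32% for Sh2d1a. Each gene kept the direction of its change in share under both lengths. The length of a gene is the same in both libraries, so these directions are largely set by the fold changes and are no separate check.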
